A study of Mus musculus with 6 samples.

Results

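The genes described here are 34 type I interferon-stimulated genes, read in regulatory T cells (Tregs), a class of CD4 T cells that holds other lymphocytes in check. They are antiviral genes and members of the PYHIN family, without the GBP and IRG families of interferon-inducible GTPases. They were taken by gene symbol from a table of 23725 genes, in which all 34 were found. The study set Tregs of MOG KO mice, a knockout of MOG in the whole mouse, against Tregs of wild-type (WT) mice. MOG is myelin oligodendrocyte glycoprotein, a protein of the myelin sheath. Each genotype has 3 libraries (replicates 1 to 3). Mice of both genotypes were of the C57Bl/6 strain and had been immunised with MOG, so no library comes from an unimmunised mouse or from cells treated with interferon. The Tregs came from lymph nodes, and each library was made from the RNA of 500 cells. The labels do not give the age of the mice, the form of MOG injected, the time after immunisation or whether the replicates are different mice. The p-values given here therefore cover only the spread from library to library, which may be technical in part.

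Type I interferons are cytokines, the alpha and beta interferons, that cells release on sensing viral nucleic acid. They bind a receptor made of Ifnar1 and Ifnar2, whose kinases Jak1 and Tyk2 phosphorylate transcription factors such as Stat2. Stat2 joins Irf9 in the complex ISGF3, which binds an element called the interferon-stimulated response element (ISRE) in front of its target genes. The targets include the members of ISGF3 itself, sensors of RNA, enzymes and binding proteins that block viral replication, and inhibitors such as Usp18 and Socs1 that end the signal. T cells carry the receptor, and interferon is known to alter Treg numbers and function.

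No interferon-stimulated gene passed the test between genotypes in edgeR (0 of 15 tested, 1 at an unadjusted p under 0.05), and limma-voom called 0 of 15. DESeq2 called 3 of 17, where it called 16.0% of all genes. These 3 passed its filter on low counts through WT alone. Levels are in RPM, the reads of a gene scaled to a common library total, and presence means a level of 10 RPM or more. By this measure 27 of the 34 genes were present in at least 1 library. Only Mndal, Ifi35 and Ifi27l2a were present in all 6 libraries. 7 genes were present in exactly 1 library, 6 in exactly 2, 4 in exactly 3, 5 in exactly 4 and 2 in exactly 5. Oas3, Oasl1, Mx2 and Ifi44 had 0 counts in every library, and Dhx58, Oasl2 and Rsad2 had counts but never reached 10 RPM.

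The levels of the 27 present genes fell into a high and a very low range. Of their 162 values (27 genes in 6 libraries), 79 were at 10 RPM or more, with a median of 158 RPM and a highest value of 1042 RPM. A further 80 were under 3 RPM, 26 of them at 0, and 3 lay between 3 and 10 RPM. This spread was like that of the whole table. Values under 3 RPM made up 49.4% of those of the interferon-stimulated genes, against 52.0% among all 7909 genes present in at least 1 library, where 3.09% lay between 3 and 10 RPM. Of the present interferon-stimulated genes 25.9% were present in exactly 1 library and 11.1% in all 6, against 32.1% and 8.90% of all present genes.

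**Figure D1:**
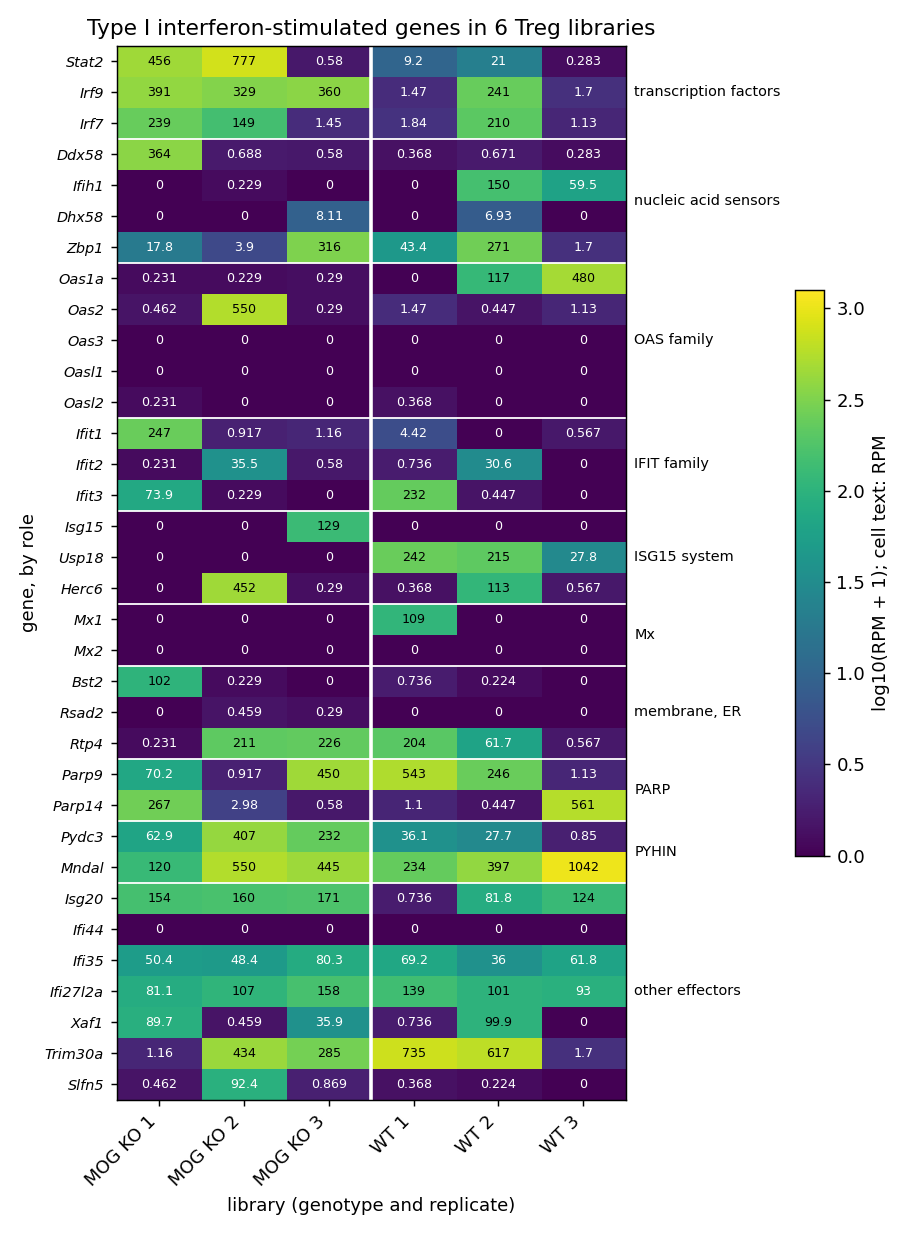
Level of each of the 34 genes in each of the 6 libraries, MOG KO on the left and WT on the right, as log10(RPM + 1), with genes grouped by role and the RPM written in each cell. Rows present in all 6 libraries are few (Mndal, Ifi35, Ifi27l2a). Oas3, Oasl1, Mx2, Ifi44, Oasl2 and Rsad2 are at or near 0 throughout, and most rows hold both high and near-zero cells within 1 genotype.

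**Figure D2:**
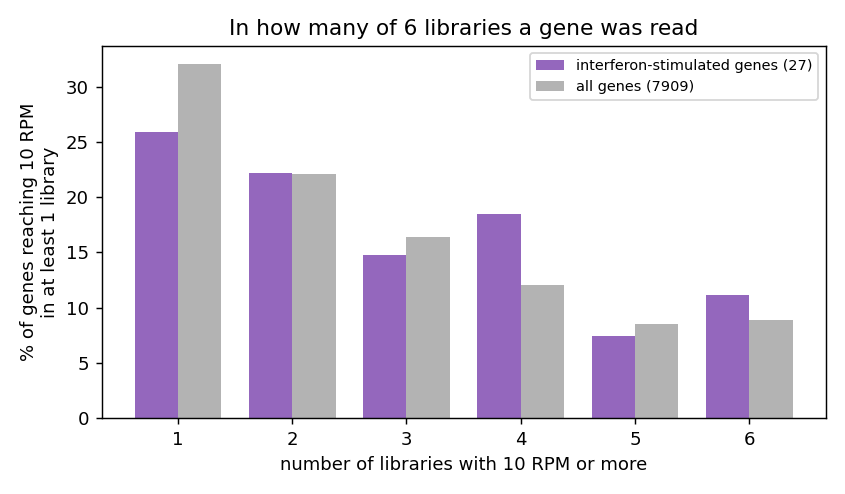
Share of genes, in percent, by the number of libraries in which they were present at 10 RPM or more, for the 27 interferon-stimulated genes and for all 7909 genes present in at least 1 library. The bars of both sets are highest at 1 library (25.9% and 32.1%).

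Libraries of opposite genotype differed in these genes about as much as libraries of 1 genotype. MOG KO replicates 1, 2 and 3 had 16, 14 and 12 of the 34 genes present, against 11, 18 and 8 in WT replicates 1, 2 and 3, so the WT range enclosed the MOG KO range. The genes together took 0.279%, 0.431% and 0.290% of the counts in the MOG KO libraries, against 0.261%, 0.305% and 0.246% in the WT libraries, and these shares overlapped. Between a MOG KO and a WT library, presence differed for 11.2 ± 2.77 of the 34 genes (SD over 9 pairs). Between libraries of 1 genotype it differed for 11.3 ± 1.51 genes (SD over 6 pairs). Of the 27 present genes this is 41.6% between and 42.0% within genotypes, near the 41.6% and 41.5% among all genes present in at least 1 library. The pairs share libraries and are given as a description, without a test.

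Gene counts totalled 3450623 to 4361315 in MOG KO libraries and 2717969 to 4472549 in WT libraries, so that a count of 0 allows up to 0.688 to 0.869 RPM in MOG KO and 0.671 to 1.10 RPM in WT (3 counts). The chemistry carries no molecular identifiers, so copies made by PCR are not separate molecules and such limits cover counting error only. The Treg markers Foxp3, Il2ra, Ctla4, Ikzf2 and Tnfrsf18 summed to 2464 to 3234 RPM in MOG KO libraries and 2319 to 3488 RPM in WT libraries, and the CD4 T cell markers Cd4, Cd3e, Cd3g and Cd3d to 1361 to 1483 RPM in MOG KO and 574 to 1435 RPM in WT. WT replicate 3 stood apart. It had Foxp3 at 8.22 RPM against 326 to 690 RPM in the other 5 libraries, Ctla4 at 74.3 RPM, Cd3g at 1.42 RPM and the lowest CD4 T cell sum, its Treg sum coming mostly from Ikzf2 and Il2ra, and it had the fewest genes present (2701, against 3265 to 4440). Without it edgeR likewise called 0 of the interferon-stimulated genes and 0 of all genes. The median log2 fold change of the 20 interferon-stimulated genes then tested was 0.18. Of plasmacytoid dendritic cells, a main source of type I interferon, the marker Siglech had 0 counts throughout, and its list of 5 summed to 0.290 to 0.917 RPM in MOG KO and 0.368 to 101.5 RPM in WT. The high end was WT replicate 2, from Ccr9 (74.0 RPM) and Pacsin1 (27.5 RPM). Myeloid markers summed to 4.82 to 11.3 RPM in MOG KO and 5.14 to 14.7 RPM in WT, and B cell markers to 0 to 131 RPM in MOG KO and 2.21 to 206 RPM in WT. Of the B cell markers, Cd79b had 129.5 RPM in MOG KO replicate 2 and 205.5 RPM in WT replicate 2. Ms4a1 had 87.3 RPM in WT replicate 3, and Cd79a was at 0 throughout. Markers of CD8 T cells and NK cells had 0 counts in every library. In such bulk libraries fewer cells that express a gene and less of its RNA per cell cannot be told apart.

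Counts were compared between genotypes with the quasi-likelihood test of edgeR over 4088 genes, and log2 fold changes are MOG KO over WT. 15 of the 34 genes had enough counts to be tested. None of the 15 passed an adjusted p of 0.05 in edgeR, where 0.0% of all tested genes passed. At an unadjusted p under 0.05 edgeR had 1 of the 15, Usp18, and 5.11% of all tested genes. With limma-voom 0 of 15 passed, as did 0.0% of all tested genes. With DESeq2 and its own filtering 3 of the 17 interferon-stimulated genes that received an adjusted p passed, where 16.0% of all genes passed. All 3 (Usp18, Ifih1 and Oas1a) were lower in MOG KO. They passed the filter on low counts through WT alone, and their p-values depend on that selection. When DESeq2 was run on the edgeR gene set, 1 of 14 passed (Usp18), where 5.98% of all genes passed. No call was shared by all 3 tools.

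Of the 15 tested genes 10 had a positive and 5 a negative log2 fold change, with a median of 0.15, beside a median of 0.06 over all tested genes, 52.1% of which were positive. The median SE of the 15 was 2.36 on the log2 scale and that of all tested genes 2.42, so differences of several-fold lay inside the error. Adjusted p in edgeR ran over 0.602 to 1.00 for the 15 genes. The 3 libraries of MOG KO all lay above the 3 of WT for Irf9, Isg20 and Pydc3 (3 of 15), where 5.97% of all tested genes did so. They all lay below for Usp18 (1 of 15), where 4.57% did so.

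**Figure D3:**
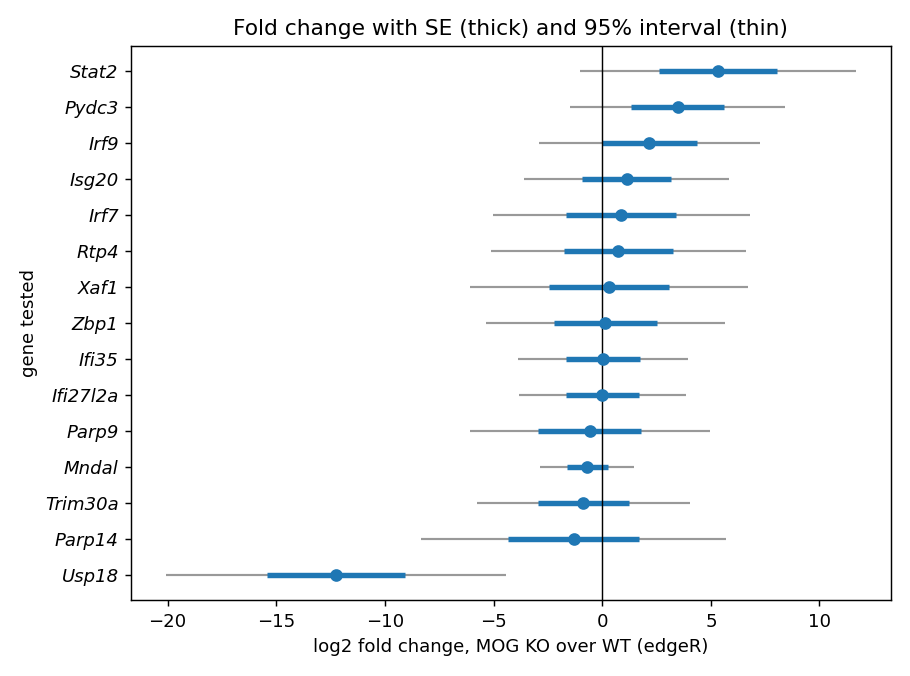
Log2 fold change (MOG KO over WT, edgeR) of the 15 tested genes, with points for the estimate and bars for the 95% interval. The interval of Usp18 (-20.08 to -4.41) lies below 0 and those of the other 14 genes cross 0; the Usp18 estimate rests on 0 counts in MOG KO and is no measure of a fold.

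The receptor and its kinases, which are not among the 34 genes, differed in how evenly they were read. Jak1, the kinase bound to Ifnar2, had 1002, 1009 and 1271 RPM in MOG KO replicates 1, 2 and 3, against 1304, 644 and 1282 RPM in WT replicates 1, 2 and 3. It was high in every library and the groups overlapped, with a log2 fold change of -0.05 ± 0.38 (SE, edgeR; 95% interval -0.95 to 0.84). Ifnar1 had 872, 2.29 and 24.1 RPM in MOG KO and 536, 36.9 and 489 RPM in WT. Ifnar2 had 0.231, 249 and 0 RPM in MOG KO and 64.8, 0.447 and 36.9 RPM in WT. Neither receptor chain separated the genotypes, with log2 fold changes of -0.40 ± 1.98 for Ifnar1 and 1.24 ± 2.98 for Ifnar2. Tyk2, the kinase bound to Ifnar1, had 483, 0.229 and 2.32 RPM in MOG KO and 571, 746 and 0.567 RPM in WT, with a log2 fold change of -1.49 ± 2.67.

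**Figure D4:**
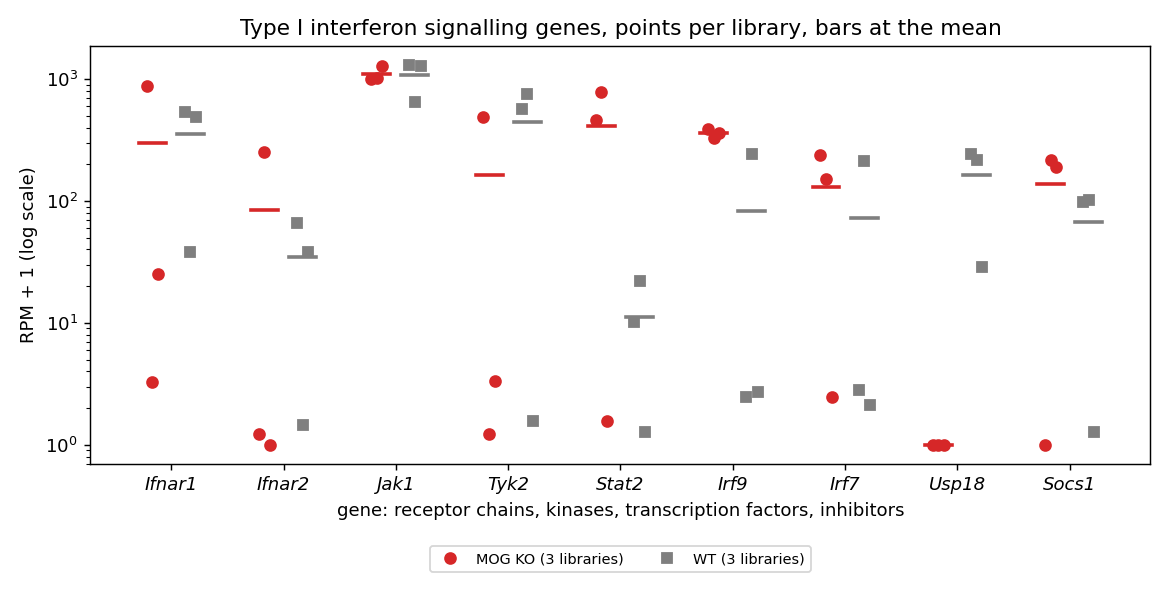
RPM + 1 on a log axis for the receptor chains, kinases, transcription factors and inhibitors of type I interferon signalling, with 1 point per library (MOG KO left, WT right in each gene) and a bar at each group's mean. Jak1 is tight (644 to 1304 RPM), Usp18 is at 0 in all 3 MOG KO libraries, and the other 7 genes have both high and near-zero points in at least 1 genotype.

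Of the transcription factors, Irf9 was read in every MOG KO library and Stat2 was the gene with the largest positive log2 fold change of the 15. Irf9, the DNA-binding subunit of ISGF3 (chromosome 14, 55603985 to 55610030, GRCm38), had 391, 329 and 360.1 RPM in MOG KO and 1.47, 241 and 1.70 RPM in WT. The MOG KO libraries lay close together, while WT replicate 2 was near them and the other 2 WT libraries were near 0. Irf9 averaged 360.1 ± 30.8 RPM in MOG KO and 81.3 ± 138 RPM in WT (SD, n = 3 each), with a log2 fold change of 2.17 ± 2.18 (95% interval -2.92 to 7.26) and an adjusted p of 1.00 in edgeR. Without WT replicate 2 its log2 fold change was 7.72, against 1.58 to 2.27 without each other library, and it was called in none of these settings.

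Stat2 (chromosome 10, 128270498 to 128292853) had 456, 777 and 0.580 RPM in MOG KO and 9.20, 21.0 and 0.283 RPM in WT. MOG KO replicates 1 and 2 were above all WT libraries, and MOG KO replicate 3 was within the WT range. The log2 fold change was 5.34 ± 2.72 (95% interval -1.0 to 11.68), with an unadjusted p of 0.0876 and an adjusted p of 1.00 in edgeR. In DESeq2 its adjusted p was 0.0822 with DESeq2's own filtering and 0.0558 on the edgeR gene set. Irf7, the factor that drives the further output of alpha interferons, had 239, 149 and 1.45 RPM in MOG KO and 1.84, 209.7 and 1.13 RPM in WT. Its groups overlapped, and its log2 fold change was 0.87 ± 2.54, or 6.37 without WT replicate 2 and 0.19 without MOG KO replicate 1. No library held all 3 factors at 10 RPM or more except MOG KO replicates 1 and 2 and WT replicate 2.

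The ISG15 system held the gene with the smallest p. Isg15 is a ubiquitin-like protein, Herc6 is the main ligase that attaches it to proteins in the mouse, and Usp18 removes it and also blocks signalling at Ifnar2. Usp18 (chromosome 6, 121245906 to 121270917) had 0, 0 and 0 RPM in MOG KO and 242, 215 and 27.8 RPM in WT. It was read in every WT library and in no MOG KO library, so it passed the filter on low counts through WT alone, and the p-values below depend on that selection. Over each group's libraries there were 0 counts in MOG KO and 1716 in WT. Taking 3 counts over the MOG KO libraries as the floor, the pooled level of Usp18 was at least 648-fold lower in MOG KO. This limit covers counting error only and not the spread between libraries. Usp18 had an unadjusted p of 0.00906 and an adjusted p of 0.602 in edgeR, so the difference did not pass, and its fitted log2 fold change of -12.25 ± 3.16 rests on the 0 counts and is no bound. DESeq2 gave adjusted p values of 0.00158 with its own filtering and 5.9e-05 on the edgeR gene set, while the other 12 settings, in edgeR and limma-voom, gave 0.138 to 1.00. 187 tested genes had their groups apart in this direction.

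Isg15 itself had 0, 0 and 129 RPM in MOG KO and 0 RPM in each WT library. Its 444 counts all came from MOG KO replicate 3, which gives a pooled level at least 131-fold higher in MOG KO but rests on 1 library, and Isg15 had too few libraries with counts to be tested. Herc6 had 0, 452 and 0.290 RPM in MOG KO and 0.368, 113 and 0.567 RPM in WT, thus 1 high library in each genotype, and was not tested. No library held more than 1 of these 3 genes at 10 RPM or more except WT replicate 2, which held Usp18 and Herc6.

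The sensors of nucleic acids were read in few libraries. Zbp1, which binds nucleic acids in the Z form, was the 1 sensor tested and had 17.8, 3.90 and 316 RPM in MOG KO and 43.4, 271 and 1.70 RPM in WT. Its groups overlapped widely, with a log2 fold change of 0.15 ± 2.36, whose sign turned in several settings. Ddx58, which encodes the RNA sensor RIG-I, was present in MOG KO replicate 1 alone, at 364 RPM. Ifih1, which encodes the RNA sensor MDA5, had 0, 0.229 and 0 RPM in MOG KO and 0, 150.2 and 59.5 RPM in WT. Ifih1 was thus high in WT replicates 2 and 3 and nearly absent from the other 4 libraries. It was filtered out in edgeR, and DESeq2 with its own filtering gave a log2 fold change of -9.63 with an adjusted p of 0.0122. The 5 other settings that tested it, none of which used DESeq2, gave 0.449 to 0.722. Ifih1 passed the DESeq2 filter through WT alone, which its p-values depend on. Dhx58, which encodes the related protein LGP2, was highest at 8.11 RPM in MOG KO replicate 3 and had 6.93 RPM in WT replicate 2.

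None of the OAS, IFIT or Mx genes passed the filter on low counts in edgeR, which asks for enough counts in 3 libraries or more. Oas proteins make oligoadenylates that activate RNase L, an enzyme that cuts RNA. Oas1a had 0.231, 0.229 and 0.290 RPM in MOG KO and 0, 117 and 479.9 RPM in WT. Like Ifih1, Oas1a was high in WT replicates 2 and 3 and nearly absent elsewhere. DESeq2 with its own filtering gave it a log2 fold change of -10.25 and an adjusted p of 0.00354. The 5 settings without DESeq2 that tested it gave 0.449 to 0.722. Oas1a too passed the DESeq2 filter through WT alone, which its p-values depend on. Oas1a shared 40.9% of its 1786 stretches of 100 bases, the read length, with its neighbour Oas1g, and the counting of reads with several matches is not given, so these values may hold reads of both genes. Oas1g had 0, 0.459 and 0 RPM in MOG KO and 0, 34.2 and 210.3 RPM in WT, high in the same libraries. Oas2 was present in MOG KO replicate 2 alone, at 550.3 RPM, and Oasl2 did not exceed 0.231 RPM in MOG KO and 0.368 RPM in WT.

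Ifit proteins bind foreign RNA and hinder its translation. Ifit1 was present in MOG KO replicate 1 alone (247 RPM). Ifit2 was present in MOG KO replicate 2 at 35.5 RPM and in WT replicate 2 at 30.6 RPM. Ifit3 was present in MOG KO replicate 1 at 73.9 RPM and in WT replicate 1 at 232 RPM. Each of these genes was under 5 RPM in every other library. Ifit3 shared 31.7% of its 1646 stretches of 100 bases with Ifit3b, which was also highest in WT replicate 1 (121 RPM) and had 9.24 RPM in MOG KO replicate 1, so its values are uncertain in the same way. Mx1, a GTPase that blocks influenza virus in other strains, had counts in WT replicate 1 alone, at 109 RPM. RefSeq annotates Mx1 and Mx2 as transcribed pseudogenes and the other 32 genes as protein-coding on this genome, that of the C57BL/6 strain, in which both Mx genes are known to be defective.

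Of the antiviral proteins at membranes, Rtp4, a receptor transport protein, had 0.231, 211 and 226 RPM in MOG KO and 204, 61.7 and 0.567 RPM in WT. It was high in 2 libraries of each genotype, with a log2 fold change of 0.75 ± 2.51. Bst2, also called tetherin, which holds virus particles on the cell, was present in MOG KO replicate 1 alone (102 RPM). Rsad2, also called viperin, did not exceed 0.459 RPM in MOG KO and had 0 counts in WT.

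Parp9 and Parp14 belong to the ADP-ribosyltransferase family. Parp9 had 70.2 RPM, 0.917 RPM and 450.4 RPM in MOG KO and 543, 246 and 1.13 RPM in WT. Parp14 had 267, 2.98 and 0.580 RPM in MOG KO and 1.10, 0.447 and 561 RPM in WT. Their groups overlapped, and the libraries high in Parp14 were low or moderate in Parp9. The log2 fold changes were -0.57 ± 2.37 for Parp9 and -1.32 ± 3.02 for Parp14, the last being 6.83 without WT replicate 3. Dtx3l, which encodes the ubiquitin ligase that binds the Parp9 protein and lies beside it on the opposite strand, had 459.6, 1.38 and 302 RPM in MOG KO and 777, 605 and 18.1 RPM in WT. The gene spans overlap and the use of strand in counting is not given, so reads of the overlap cannot be assigned to either.

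The PYHIN genes, which encode nuclear and cytosolic DNA-binding proteins or their fragments in a cluster on chromosome 1, reached 10 RPM in 11 of 12 values (2 genes in 6 libraries). Their levels still ranged widely in Pydc3. Other PYHIN genes outside the 34 varied in how widely they were read. Ifi203 reached 10 RPM in 6 libraries, Pyhin1, Ifi205 and Pydc4 in 5 each, Ifi204 in 3 and Aim2 in WT replicate 2 alone (183 RPM). Pydc4 had 35.8, 69.7 and 172 RPM in MOG KO and 16.2, 16.3 and 0 RPM in WT. Its log2 fold change was 3.12 ± 2.36 and did not pass in edgeR. Those of Ifi203 (-0.79), Pyhin1 (-0.04), Ifi205 (-0.74) and Ifi204 (-0.66) were negative and did not pass either. Mndal (173857215 to 173880382) had 120.4, 549.8 and 445 RPM in MOG KO and 234, 397 and 1042 RPM in WT. Every library was above 100 RPM and the groups overlapped, with means of 372 ± 224 RPM in MOG KO and 558 ± 427 RPM in WT (SD, n = 3 each). Its log2 fold change was -0.68 ± 0.93 (95% interval -2.85 to 1.48), the narrowest error among the 15 tested genes, and 0.27 without WT replicate 3, where Mndal was highest. Pydc3 (173673628 to 173698393) had 62.9, 407 and 232 RPM in MOG KO and 36.1, 27.7 and 0.850 RPM in WT. All MOG KO libraries were above all WT libraries, although MOG KO replicate 1 and WT replicate 1 were close. The log2 fold change of Pydc3 was 3.47 ± 2.13 (95% interval -1.48 to 8.41), with an unadjusted p of 0.144 and an adjusted p of 1.00 in edgeR. Pydc3 shared 5.92% and Mndal 6.38% of their stretches of 100 bases with other genes of the cluster.

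The other effectors held the 2 genes that were present in all 6 libraries beside Mndal. Ifi35, an interferon-induced leucine zipper protein, had 50.4, 48.4 and 80.3 RPM in MOG KO and 69.2, 36.0 and 61.8 RPM in WT. Ifi27l2a, a small protein of the mitochondrial or nuclear membrane, had 81.1, 107 and 158 RPM in MOG KO and 139, 101 and 93.0 RPM in WT. Both groups overlapped throughout. Ifi35 averaged 59.7 ± 17.9 RPM in MOG KO and 55.7 ± 17.4 RPM in WT, and Ifi27l2a averaged 115 ± 38.9 RPM in MOG KO and 111 ± 24.9 RPM in WT (SD, n = 3 each). Their log2 fold changes were 0.03 ± 1.70 (95% interval -3.89 to 3.95) and 0.01 ± 1.67 (-3.85 to 3.87). These intervals, from the fit over all genes, are far wider than the spread of the 6 values and do not show that the genotypes are alike.

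Isg20, an exonuclease that degrades RNA (chromosome 7, 78913396 to 78920396), had 154, 160.0 and 171 RPM in MOG KO and 0.736, 81.8 and 124 RPM in WT. All MOG KO libraries were above all WT libraries, WT replicate 3 being the nearest and WT replicate 1 near 0. Isg20 averaged 162 ± 8.45 RPM in MOG KO and 68.9 ± 62.7 RPM in WT (SD, n = 3 each). Its log2 fold change was 1.12 ± 2.03 (95% interval -3.59 to 5.83), which did not pass in edgeR (adjusted p of 1.00). Trim30a, a TRIM protein that dampens Toll-like receptor signalling in the mouse, had 1.16, 434 and 285 RPM in MOG KO and 735, 617 and 1.70 RPM in WT. Xaf1, a partner of the apoptosis inhibitor XIAP, had 89.7, 0.459 and 35.9 RPM in MOG KO and 0.736, 99.9 and 0 RPM in WT. Both genes overlapped between genotypes, with log2 fold changes of -0.87 ± 2.10 for Trim30a and 0.32 ± 2.75 for Xaf1. Slfn5, of the Schlafen family, was present in MOG KO replicate 2 alone (92.4 RPM).

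Promoters were searched for the letters of the element that ISGF3 binds. RefSeq windows on GRCm38.p6, 250 bases before to 50 bases after each start, were matched by gene identifier for 24 of the 34 genes, and the other 10, Usp18 among them, were not searched. The ISRE was searched as TTTC, 2 bases of any kind and TTTC, on both strands. 14 of the 24 genes held it (58.3%), against 3.99% of all 27025 genes with a window. The 14 were Stat2, Ddx58, Ifih1, Oas1a, Oas3, Ifit1, Ifit3, Isg15, Bst2, Rsad2, Pydc3, Mndal, Trim30a and Slfn5. The letters TTCNNNGAA, the gamma-activated site of interferon-gamma signalling, were in 5 of the 24 (20.8%), against 9.55% of all genes. A match is a description of letters and not a bound site, and the windows of Irf9, Irf7 and Isg20, for example, held no ISRE match. Shown here are the windows of the tested genes that hold the ISRE letters and have the smallest p in each direction: Stat2 (chr10:128270248-128270547, plus strand) and Pydc3 (chr1:173673415-173673714, plus) among those with positive log2 fold changes, Mndal (chr1:173880138-173880437, minus) and Trim30a (chr7:104465144-104465443, minus) among those with negative ones. Mndal and Trim30a have 2 windows each, and the one of the start farthest upstream is shown. Each is written 5′ to 3′ on the gene's strand, with the ISRE letters in capitals.
Stat2: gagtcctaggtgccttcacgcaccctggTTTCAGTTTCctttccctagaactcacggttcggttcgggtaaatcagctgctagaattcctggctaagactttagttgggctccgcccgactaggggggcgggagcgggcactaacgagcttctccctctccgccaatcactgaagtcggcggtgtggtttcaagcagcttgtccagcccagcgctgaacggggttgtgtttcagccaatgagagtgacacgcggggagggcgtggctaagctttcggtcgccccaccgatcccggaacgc
Pydc3: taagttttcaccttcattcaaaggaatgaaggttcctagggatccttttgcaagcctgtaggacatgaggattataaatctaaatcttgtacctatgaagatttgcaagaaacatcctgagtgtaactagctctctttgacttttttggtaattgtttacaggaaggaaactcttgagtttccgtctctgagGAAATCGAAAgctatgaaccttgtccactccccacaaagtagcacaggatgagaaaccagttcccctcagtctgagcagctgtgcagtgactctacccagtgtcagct
Mndal: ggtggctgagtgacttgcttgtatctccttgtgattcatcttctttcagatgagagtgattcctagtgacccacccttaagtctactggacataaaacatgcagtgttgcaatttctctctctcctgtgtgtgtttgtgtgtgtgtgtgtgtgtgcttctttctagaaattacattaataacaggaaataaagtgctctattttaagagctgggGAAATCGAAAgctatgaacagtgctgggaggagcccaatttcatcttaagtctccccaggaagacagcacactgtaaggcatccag
Trim30a: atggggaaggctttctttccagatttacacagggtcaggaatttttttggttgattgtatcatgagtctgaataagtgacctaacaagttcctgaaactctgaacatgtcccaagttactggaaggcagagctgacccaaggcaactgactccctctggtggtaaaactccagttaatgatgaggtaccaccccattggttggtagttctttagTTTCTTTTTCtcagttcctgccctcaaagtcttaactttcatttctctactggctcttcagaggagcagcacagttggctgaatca

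In these windows the centre of the ISRE letters lay 53 bases before the start in Pydc3 and 31 bases before it in Mndal and Trim30a, and 217 bases before it in Stat2. The Pydc3 and Mndal windows hold the same letters within a shared run of 20 bases, gGAAATCGAAAgctatgaac, where the longest shared run of any other pair of different genes among the shown windows was 8 to 10 bases. Across the MOG KO libraries both genes were lowest in replicate 1 and highest in replicate 2, while in WT replicate 3 Pydc3 was at its lowest level and Mndal at its highest. Genes with the ISRE letters included ones read in all 6 libraries (Mndal), in 1 library (Isg15, Ifit1, Ddx58, Bst2, Slfn5) and in none (Oas3, Rsad2).

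Beyond the 34 genes, a list of 96 further genes of the pathway was examined, 94 of which were in the table and 57 of which were tested. None of the 57 passed in edgeR, 1 (Adar) had an unadjusted p under 0.05, as had 5.11% of all tested genes, and limma-voom called 0. DESeq2 called 4 of 53 with its own filtering, where it called 16.0% of all genes, and 1 of 47 on the edgeR gene set, where it called 5.98%. 28 had positive and 29 negative log2 fold changes, with a median of -0.04 beside 0.06 over all tested genes. Of the 94 in the table, tested or not, 21 were present in all 6 libraries, beside 8.90% of all genes present in at least 1 library.

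Interferon genes and the nucleic acid pathways that induce them were the least read list, with 7 of 20 genes tested. 7 of the 20 had 0 counts in every library, namely Ifnb1, Ifna4, Ifng, Tlr3, Tlr7, Tlr9 and Mb21d1. Ikbke, a kinase of this route, had 1.39, 474 and 558 RPM in MOG KO and 5.89, 275 and 2.27 RPM in WT, and Irf3, the factor it activates, had 15.7, 354 and 0.290 RPM in MOG KO and 121, 0.447 and 6.52 RPM in WT. Neither separated the genotypes (log2 fold changes 1.92 ± 2.45 and 1.53 ± 2.73). Myd88 and Ticam1, adaptors of Toll-like receptors, are given because DESeq2 called them, thus after their values were seen. Myd88 had 0 counts in every MOG KO library and 244, 274 and 0 RPM in WT. Its pooled counts were at least 713-fold lower in MOG KO, a limit that covers counting error only, and WT replicate 3 was at 0 too. The adjusted p of Myd88 was 0.00525 in DESeq2 and 0.449 to 0.618 in the 5 other settings that tested it. Ticam1 had 0 counts in every MOG KO library and 0.736, 103 and 219 RPM in WT, with an adjusted p of 0.00281 in DESeq2 and 0.449 to 0.722 in the 5 others. Like Oas1g, the third gene named for this reason (DESeq2 adjusted p of 0.0136, others 0.449 to 0.722), both were near 0 in a WT library too. Myd88, Ticam1 and Oas1g passed the DESeq2 filter through WT alone, and their p-values depend on that selection.

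Of the inhibitors, 7 of 9 were tested, with 4 positive and 3 negative log2 fold changes. Socs1, which blocks the Jak kinases, had 0, 216 and 190.4 RPM in MOG KO and 97.1, 101 and 0.283 RPM in WT, with a log2 fold change of 1.07 ± 2.70. Pias1, an inhibitor of STAT signalling, had 236, 293 and 1.74 RPM in MOG KO and 587, 488 and 375.0 RPM in WT, so that all MOG KO libraries were below all WT libraries (-1.51 ± 1.59). The same held for Stat3, a transcription factor used by the receptor and by other cytokines, with 0.231, 105 and 201 RPM in MOG KO and 741, 332 and 680.0 RPM in WT (-2.56 ± 1.79). Ptpn6, the phosphatase SHP-1, had 5.08, 2.52 and 2.03 RPM in MOG KO and 5.52, 142 and 3.12 RPM in WT, a difference that rests on WT replicate 2 (-3.95 ± 2.25). None of them passed in edgeR. Of the 57 tested pathway genes 3 (Pias1, Stat3 and Adar) had all MOG KO libraries below all WT libraries, where 4.57% of all tested genes did so. In the other direction 1 (Phf11b) had them all above, where 5.97% did so.

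Of the 56 other interferon-stimulated genes on the list, 35 were tested, with 16 positive and 19 negative log2 fold changes and a median of -0.05. Of the 56, tested or not, 15 were present in all 6 libraries, beside 8.90% of all genes present in at least 1 library. Adar, the enzyme that edits double-stranded RNA and so limits its sensing by MDA5, had 1.39, 0.459 and 2.03 RPM in MOG KO and 28.3, 220.5 and 141 RPM in WT. It was near 0 in every MOG KO library and read in every WT library, and like Usp18 it passed the filter on low counts through WT alone, which its p-values depend on. The log2 fold change of Adar was -6.68 ± 2.32 (95% interval -12.04 to -1.32), with an unadjusted p of 0.0207 and an adjusted p of 0.705 in edgeR. DESeq2 called it (adjusted p of 0.0094 with its own filtering, 0.0045 on the edgeR gene set), and the other 12 settings gave 0.487 to 1.00. Trim34a, a TRIM protein that acts on retroviruses, had 11.6, 7.34 and 4.06 RPM in MOG KO and 479, 0 and 0.283 RPM in WT, so its log2 fold change of -4.41 ± 3.22 rests on WT replicate 1.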

How the data were processed

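RNA of 500 lymph node Tregs per library was made into cDNA with the SMARTer V3 kit (15 PCR cycles) and NexteraXT libraries, sequenced to 100 bases from 1 end, per the labels' protocols. The authors deposited whole-number counts per gene in exons, not normalised, for 3 MOG KO and 3 WT libraries, and the same data as RPM. RPM values recomputed from the counts differed from the authors' by at most 4.5e-11. STAR 2.3.1, R 3.2.2 and build mm10 are named, per the submitters' processing notes. How reads were assigned to genes, with or without strand and with several matches, is not given in the sources used here. 1 row of the table carries no symbol but has a gene identifier.

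The 34 genes were matched by symbol. Of the 96 pathway genes 94 were found, 2 of them under older symbols by identifier. The genes, the pathway and marker lists and the rules were chosen with earlier results of these data known.

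The main test was that of edgeR 4.0.16 in R 4.3.3 (filterByExpr, TMM, robust quasi-likelihood fit, genotype alone, Benjamini-Hochberg over 4088 genes, threshold 0.05). The SE is the size of the log2 fold change over the root of its F statistic, and the 95% intervals use it with the moderated degrees of freedom. Adjusted p values of 0.9996 are written as 1.00. Present means 10 RPM or more, and floors are the RPM that 3 counts give in a library. Every tested gene of the 34 is named with all its values, as are Ifnar1, Ifnar2, Jak1, Tyk2, Socs1 and the 2 tested genes of smallest p in each pathway list. A gene that this rule also names is not reported here. Alternatives were DESeq2 size factors, no filter on low counts, 50 counts in 3 libraries, DESeq2 1.42.0 (its own filtering, or the genes tested in edgeR), limma-voom (limma 3.58.1), a replicate block, and leaving out each library. The fits were run on simulated counts, with success required only at a low spread and not at that of these data. Shared stretches were counted as exact matches of 100 bases between GENCODE M21 transcripts on GRCm38. Gene positions and promoters are RefSeq's on GRCm38.p6.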

Additional observations from a re-analysis of the deposited data

How the results depend on the processing

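In edgeR, no interferon-stimulated gene of the 34 and no pathway gene passed under another normalisation, no filter, a filter of 50 counts in 3 libraries or the replicate block, nor in limma-voom, and leaving out each library in turn gave 0 to 0 calls among the 34, all genes and the pathway. DESeq2 called 3 of the 34, 4 pathway genes and 745 genes in all (271 higher and 474 lower in MOG KO). On the edgeR gene set it called 1, 1 and 210 (97 higher, 113 lower). The cause was not tested. The median log2 fold change was taken over the genes tested in each setting, so the gene sets differ. It ran from -0.25 to 0.51 without 1 library (17 to 21 genes). It was 0.22 with no filter (30 genes) and 0.15 with the filter of 50 counts (14 genes). Over the 15 genes of the main fit it was 0.47 with DESeq2 size factors, 0.09 in limma-voom and 1.44 with the replicate block. Over the same 15 it was 0.52 in DESeq2 and 0.47 in DESeq2 on the edgeR gene set. 3 genes were present in all 6 libraries at 3 RPM and 2 at 50 RPM, and 3 to 4 when a library was left out.

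Replicates of the same number did not deviate together (correlations -0.022, -0.002 and -0.018), and those of unlike number gave -0.016 to 0.037. The labels do not say whether the numbers pair the libraries. This check cannot exclude a pairing, as the spread from library to library was large. With the replicate block 0 of the 34 were called.

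8 of the 15 tested genes (Stat2, Irf9, Irf7, Usp18, Rtp4, Pydc3, Isg20 and Trim30a) kept their sign in every setting. The sign of Zbp1 turned with no filter (-0.06), the filter of 50 counts (-0.00013), limma-voom (-0.29) and the block (-1.18). Parp14 turned in limma-voom (0.16) and with the block (2.52). Ifi35 turned with DESeq2 size factors (-0.03), in DESeq2 (-0.13) and in DESeq2 on the edgeR gene set (-0.03). Ifi27l2a turned with no filter (-0.02), the filter of 50 counts (-0.01), DESeq2 (-0.05), limma-voom (-0.05) and the block (-0.03). Without 1 library the log2 fold changes ran from -3.24 to 2.29 for Zbp1, -2.92 to 0.48 for Parp9, -6.89 to 6.83 for Parp14, -1.10 to 0.27 for Mndal, -0.25 to 0.20 for Ifi35, -0.28 to 0.24 for Ifi27l2a and -0.77 to 6.72 for Xaf1. None of these genes passed in any setting. The cause was not tested.

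With 3 libraries of 500 cells each and no molecular identifiers, low capture and low expression of a gene read near 0 cannot be told apart.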
